A study of Mus musculus with 20 samples.

Results

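Rap1a and Rap1b are small GTPases of the Ras family, and their regulators on the array were the GTPase activating proteins Rap1gap and Sipa1 and the cAMP-activated exchange factors Rapgef3 and Rapgef4. These 6 genes had 13 probes, each taken because the array's gene name equals a member's symbol, out of 41174 probes and 27574 named genes in all. After a filter on dim spots 10 probes of 5 members were left, among 24883 probes and 17067 genes. The members were chosen by their ratios of Spdef knockout (KO) over wild type signal in these pools, so these ratios are given below as values with their spread and without a test. The levels in wild type tissue were not used in the choice and were tested.

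Rap1 works as a switch. Exchange factors such as Rapgef3 and Rapgef4, also called Epac proteins, load it with GTP when cAMP binds them, and GTPase activating proteins such as Rap1gap and Sipa1 speed up its return to the GDP-bound state. GTP-bound Rap1 promotes integrin activation, the tightening of cadherin junctions and cell polarity, and in epithelia and endothelia it is known for its part in barrier function. Spdef is an ETS transcription factor of secretory epithelial cells, among them the mucus-secreting goblet cells.

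RNA came from whole small intestines or colons of Spdef ko and wildtype mice, taken at P30 (postnatal day 30) for the adult groups and at E18.5 for the fetal ones. Each pool held RNA of 2 to 3 littermates, and the labels give neither strain nor the design of the knockout allele. Each of 20 two-colour arrays set a KO pool against a wild type pool of the same tissue and stage, and every pair of pools was hybridised in both dye orders. Adult small intestine had 2 pairs, adult colon 3, fetal small intestine 3 and fetal colon 2, and n counts pairs. Fetal small intestine pairs 1 and 2 differed by less than the noise between arrays (variance ratio 0.597, against 1.41 to 6.40 for other pairs of a group) and were counted as 1 sample, which leaves n = 2 in that group.

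The targeted gene, Spdef, was lower in KO in 10 of 10 pairs, by a log2 ratio between -3.96 and -1.45. On one slide the fetal tissues went against their labels. The wild type pool labelled fetal small intestine pair 3 had log2 signals of 8.76 for Lct, the small intestinal lactase, and 11.61 for Hoxb13, a hindgut homeobox gene, whereas the wild type pool labelled fetal colon pair 1 had 16.37 and 7.0. Pool labels were kept as given. The fetal ratios of Rap1gap and Rapgef3 and the wild type contrasts of Rap1gap, Sipa1 and Rapgef3 are given with and without that slide. Other results that rest on these pools, such as fetal marker lists, fetal pathway counts and correlations, include it unless stated. The dimmest array held adult colon pair 1 with KO in Cy5, with 39.5% of probes well above background in its wild type channel against a median of 61.5% over channels. Pancreatic RNA was present in several adult pools: Cpb1, which encodes a pancreatic carboxypeptidase, had wild type log2 signals of 16.41 and 16.61 in adult colon pools 1 and 3 and 7.71 in pool 2. The wild type pools of fetal small intestine also had lower signal than their KO partners for Eif2s3y, a gene of the Y chromosome, by 3.52 to 4.34 on the log2 scale. In the pools labelled fetal colon, Xist, the RNA of the inactive X chromosome, was higher in KO by 3.44 and 4.6, with wild type signals of 7.27 and 8.07. The part of sex in the results was not tested.

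The 250 bases before a start site of the 2 members with the lowest KO over wild type ratios are shown because an ETS factor is the gene deleted here. They are from RefSeq promoter windows of build GRCm38.p6, in which 5 of 6 members matched, with 11 windows in all. Capitals mark GGAA or GGAT on either strand, the core letters of ETS sites, where GGAT is the core that Spdef is known to favour.
Rap1gap, chr4:137664476-137664725, plus strand: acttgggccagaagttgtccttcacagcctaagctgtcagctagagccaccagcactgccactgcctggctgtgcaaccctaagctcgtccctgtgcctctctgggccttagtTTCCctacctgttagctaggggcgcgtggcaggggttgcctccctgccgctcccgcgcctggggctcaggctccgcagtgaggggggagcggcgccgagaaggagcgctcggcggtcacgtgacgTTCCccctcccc
Rapgef3, chr15:97767667-97767916, minus strand: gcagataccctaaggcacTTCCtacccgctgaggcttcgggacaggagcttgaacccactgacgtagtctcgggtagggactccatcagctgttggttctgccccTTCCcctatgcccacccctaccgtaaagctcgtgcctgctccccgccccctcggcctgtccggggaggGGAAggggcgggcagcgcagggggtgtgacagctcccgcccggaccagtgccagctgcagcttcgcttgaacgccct
The Rap1gap window shown, the first of its 7 in the table, held 2 matches to GGAA and 0 to GGAT, and the only Rapgef3 window held 3 and 0. The other Rap1gap windows held 2 to 4 matches to GGAA, and 3 of the 7 held 1 match to GGAT. Over all 32851 promoter windows of this length, 93.4% held GGAA and 74.1% held GGAT on either strand, so matches to GGAA are the common case. The longer strings CCGGAA and CCGGAT, which contain those cores, were in 12% and 4.94% of all windows and in 0 of the members' 11. These are descriptions of letters in the windows shown and say nothing of binding.

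Rap1gap, which lowers GTP-bound Rap1, had the lowest KO over wild type ratio of the members in every pair of pools at its bright probe. Its dim probe did not, as given below. Its bright probe lies at chr4:137001766-137001825 in build mm8, as the array files give it, and was well above background in both channels of 20 of 20 arrays. The log2 ratio was -0.82 and -1.21 in the adult small intestine pairs. In adult colon it was -1.51, -1.64 and -1.62. In the pairs labelled fetal small intestine it was -0.76, -0.84 and -1.08, and in those labelled fetal colon -0.63 and -0.87. All 20 arrays gave a lower signal in KO, from -1.72 to -0.58, and the 3 adult colon pairs lay below all other pairs.

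By group, the KO pools held 49.4% of the wild type Rap1gap signal in adult small intestine (mean log2 ratio -1.02 ± 0.28 SD, n = 2). In adult colon they held 33.3% (-1.59 ± 0.07, n = 3), a 3.00-fold lower signal. Of the fetal groups, small intestine held 52.1% (-0.94 ± 0.20, n = 2) and colon 59.3% (-0.75 ± 0.17, n = 2). Without the slide that went against its labels, the fetal ratios were -0.80 and -0.87, from 1 sample each. Counted from the lowest of 17067 genes, Rap1gap stood at rank 43 (adult small intestine), 23 (adult colon), 33 (fetal small intestine) and 55 (fetal colon). Of all genes tested with limma, 0.234%, 5.65%, 0.311% and 0.176% passed as lower in these groups at an adjusted p under 0.05. Nothing is read from that for Rap1gap, since the rule used this contrast. In adult colon pair 2, whose pools had log2 Cpb1 signals of 7.71 in wild type and 7.74 in KO, the ratio was -1.64.

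**Figure D1:**
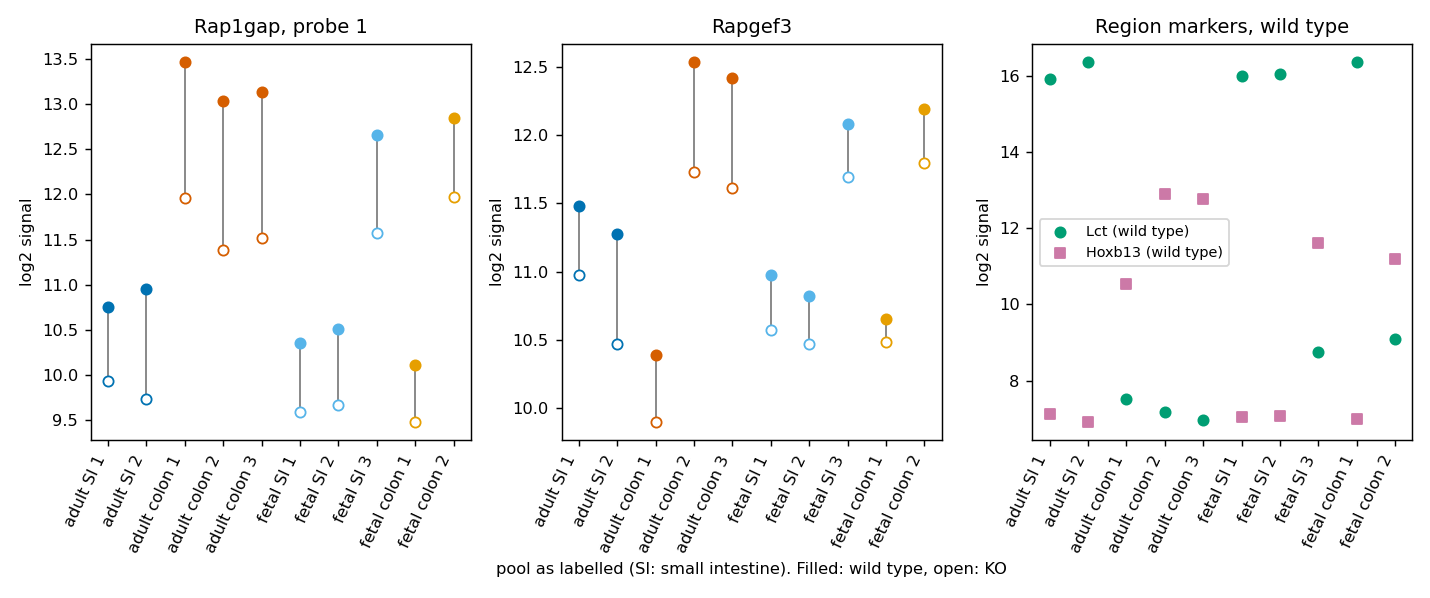
Log2 signal of Rap1gap (bright probe, left) and Rapgef3 (centre) in each wild type pool (filled) and its KO partner (open), and of the region markers Lct and Hoxb13 in the wild type pools (right), by pool as labelled. The open circle lies below the filled one in all 10 pairs for both genes, and fetal small intestine 3 and fetal colon 1 show the Lct and Hoxb13 signals of the other tissue.

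The dim probe of Rap1gap, at chr4:136997662-136997721 in mm8, 4104 bases from the bright one, had smaller ratios. They were -0.003 and -0.18 in adult small intestine. They were -0.20, -0.73 and -0.57 in adult colon. The fetal pairs gave -0.07, -0.09 and -0.37 for small intestine and -0.03 and -0.20 for colon. The sign was the same as for the bright probe in 10 of 10 pairs. This probe was well above background on 18 of 20 arrays in wild type but on 11 of 20 in KO, and its median signal over local background was 70.2 in wild type and 42.9 in KO, against 3892 and 1372 for the bright probe. An offset of 50, added to every background-corrected signal before logs, is about as large as such a signal.

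On the 11 arrays where both channels of the dim probe were above background, its median log2 ratio was -0.36 with the offset, against -1.13 for the bright probe on the same arrays. With the scanner's processed signals, which carry no offset, the medians were -1.0 and -1.22, and the dim probe was lower in KO on 11 of 11. By pair, the processed signals of the dim probe gave 0.27 and -0.98 in adult small intestine, and from -1.70 to -0.56 in the other 8 pairs. In adult small intestine this probe was above background on 2 of 4 arrays in wild type and 1 of 4 in KO. The difference in size between the probes thus depended on the background treatment. In the authors' deposited table the dim probe was listed at exactly 0 on 14 of 20 arrays and below 0 on 6, and the bright probe was below 0 on 20 of 20.

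**Figure D2:**
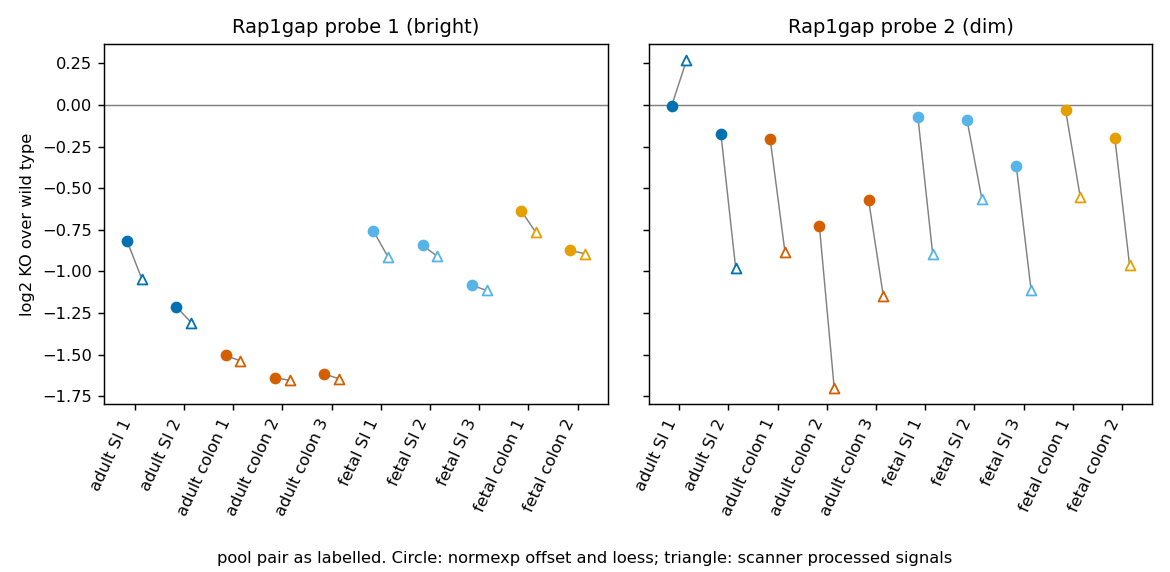
Log2 KO over wild type of Rap1gap by pool pair, for the bright probe (left) and the dim probe (right), with the offset and loess (circles) and with the scanner's processed signals (triangles). Circles and triangles stay close for the bright probe, while for the dim probe the triangles lie lower in 9 of 10 pairs.

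Sipa1, the other GTPase activating protein for Rap1 among the members, had ratios near 0. Its brighter probe, at chr19:5651680-5651930 in mm8, gave 0.17 and 0.09 in adult small intestine and 0.07, -0.01 and 0.21 in adult colon. It gave -0.02, -0.02 and 0.10 in fetal small intestine, and 0.08 and 0.08 in fetal colon. The other Sipa1 probe, at chr19:5652049-5652108, lay between -0.08 and 0.31 over the 10 pairs. Each probe was below 0 in 3 of 10 pairs.

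Rapgef3, the cAMP-activated exchange factor Epac1, was measured by 1 probe at chr15:97573027-97573086 in mm8, above background on all 20 arrays. Its log2 ratio was -0.50 and -0.80 in adult small intestine, and -0.49, -0.81 and -0.80 in adult colon. It was -0.40, -0.36 and -0.39 in the pairs labelled fetal small intestine, and -0.17 and -0.39 in those labelled fetal colon. The signal was lower in KO on 20 of 20 arrays, and the 5 adult pairs lay below the 5 fetal pairs. The KO pools held 63.6% of the wild type Rapgef3 signal in adult small intestine (mean -0.65 ± 0.21 SD, n = 2) and 61.6% in adult colon (-0.70 ± 0.18, n = 3). Of the fetal groups, small intestine held 76.6% (-0.38 ± 0.01, n = 2) and colon 82.2% (-0.28 ± 0.16, n = 2), and without the slide in question the ratios were -0.38 and -0.39. So the activator Rapgef3 and the inactivator Rap1gap both had less signal in KO. The bright Rap1gap probe had a larger deficit than Rapgef3 in every pair, and the dim one, with the offset, a smaller deficit in every pair. Nothing is read from this order, since the members were chosen with these ratios in view. In adult colon pair 1, Rapgef3 read 8.12 in wild type on the dimmest array and 12.66 for the same pool on the dye swap, and the ratios were -0.22 and -0.77.

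Rapgef4, the exchange factor Epac2, was above background on 0 of 20 arrays in either channel at both of its probes, which lie at chr2:72043604-72053810 and chr2:71831964-71834878 in mm8. Its ratios, between -0.06 and 0.16, are therefore those of background signal, and no level or change of Rapgef4 is given. In the authors' deposited table both probes were at exactly 0 on 20 of 20 arrays. A change of Rapgef4 signal in KO was thus not detectable with these 2 probes. A further probe, named 6330581N18Rik in the files and matched to Rapgef4 by its accession, is no member by the rule. It was above background in wild type on 8 of 20 arrays, and its ratios lay between -0.04 and 0.19.

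The GTPases themselves had ratios close to 0. The brightest Rap1a probe, at chr3:105856461-105856520 in mm8, gave -0.29 and -0.05 in adult small intestine and -0.25, -0.25 and -0.03 in adult colon, and lay between -0.04 and 0.13 in the 5 fetal pairs. On this probe the ratio followed the dye, with a mean of -0.43 over the 10 arrays with KO in Cy5 and 0.27 over the 10 with KO in Cy3, which the averaging of dye swaps balances. A neighbouring Rap1a probe at chr3:105855514-105855573 had ratios between -0.12 and 0.10, and the remaining one, at chr3:105895921-105895980, was above background on 0 of 20 arrays. The 3 Rap1b probes lay between -0.13 and 0.18, between -0.23 and 0.35, and between -0.07 and 0.11 over the 10 pairs. They are at chr10:117218064-117218123, chr10:117224596-117225809 and chr10:117216955-117217014.

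**Figure D3:**
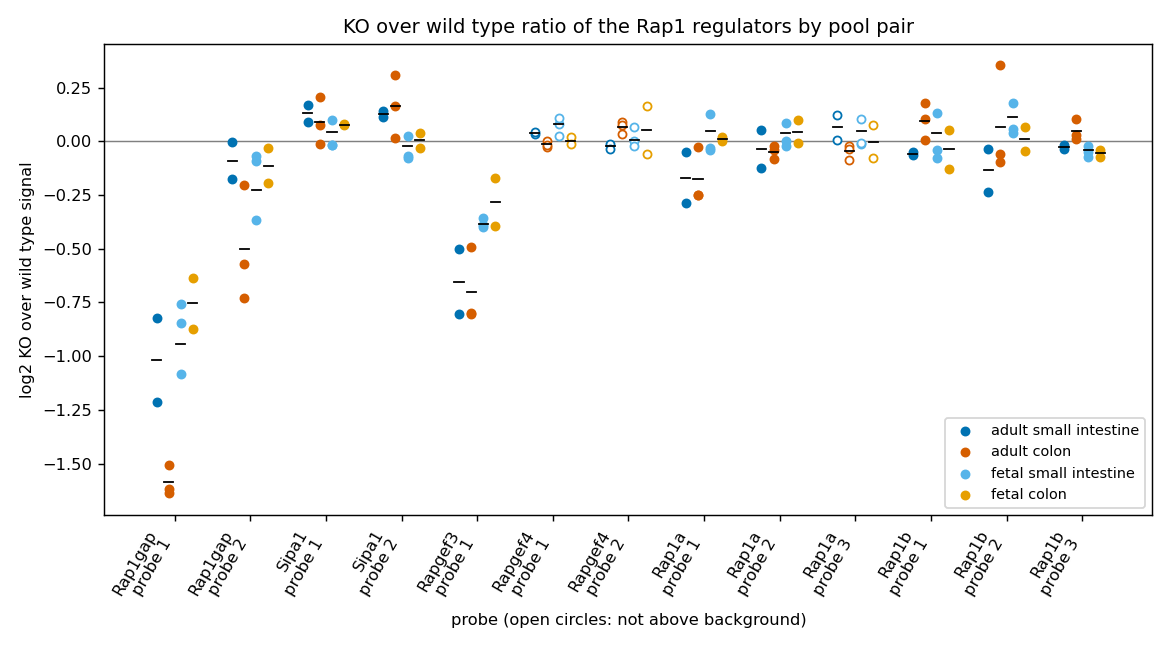
Log2 KO over wild type for the 13 probes of the Rap1 regulators, 1 circle per pair of pools, coloured by group as labelled, with bars at the group means (fetal small intestine pairs 1 and 2 counted once). Rap1gap probe 1 and Rapgef3 lie below 0 in every pair, and Sipa1, Rap1a and Rap1b lie around 0.

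Marker genes of goblet and other cell types were measured in the same pools as the lower Rap1gap and Rapgef3. In whole tissue, fewer cells of a type and less RNA per cell cannot be told apart. Of 14 goblet cell genes tested, 2 passed as lower in adult small intestine. In adult colon 8 passed as lower and 2 as higher, where 3.94% of all genes passed as higher. The fetal groups had 5 lower (small intestine) and 4 lower (colon). Of all genes, 0.234%, 5.65%, 0.311% and 0.176% passed as lower in the groups in this order. The goblet genes had median log2 ratios of -0.39, -0.50, -0.88 and -0.63 in those groups, and their summed signal differed between KO and wild type by -0.23 to 0.11, -0.38 to -0.04, -0.75 to -0.46 and -0.48 to -0.23 over the pairs. Muc2, which encodes the main mucin of goblet cells, had -0.64, -0.99, -1.74 and -1.80. Rap1gap had its lowest ratio in adult colon, and Muc2 had its lowest in the fetal groups. The goblet genes differed among themselves in this. Creb3l4 had -2.26, -2.71, -2.10 and -1.82, lowest in adult colon, and Spink4 had -0.71, -0.93, -1.48 and -1.36, lowest in the fetal groups. Ratios above that of the bright Rap1gap probe were found for 12 of 14 goblet genes in adult small intestine and 13 of 14 in adult colon. In each fetal group 7 of 14 had such ratios. Some of these genes rose, such as Tff3 in adult colon (0.56). Nothing is read from these counts, since Rap1gap was chosen with this ratio in view.

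Endothelial cells are known to express Rapgef3 as well, and 0 of 12 endothelial genes passed in any group with limma. The 12 had median log2 ratios of -0.02, -0.19, -0.02 and -0.01 in the same order of groups. Their summed signal differed by -0.28 to 0.10 over all pairs. Of 11 epithelial genes 2 passed as higher in adult colon and 0 passed elsewhere, and their summed signal differed by -0.33 to 0.20.

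Other marker lists were counted in the same way. Of all genes, 0.234% passed as lower in adult small intestine, 5.65% in adult colon and 0.311% in fetal small intestine. As higher, 0.164%, 3.94% and 0.129% passed in these groups and 0.111% in fetal colon. In adult colon, 1 of 13 genes of a list is close to such a share. Paneth cells are antimicrobial secretory cells of the small intestinal crypt, and 5 of 9 Paneth genes passed as lower in adult small intestine (median log2 ratio -1.21), 2 of 9 as lower in fetal small intestine (-0.75) and 2 of 9 as higher in adult colon (0.23). Of 13 enteroendocrine genes 1 passed as higher in each group but adult colon (0), with medians in those groups of 0.35, 0.26 and 0.22. In adult colon, where Rap1gap had its lowest ratio, 4 of 12 leukocyte genes passed as higher (median 0.26), 5 of 10 enteric neuron and glia genes as lower (-0.21) and 1 of 13 pancreatic genes as lower (-1.55). There, 2 of 8 colon region genes also passed as lower (-0.14), and 0 of 9 smooth muscle genes passed (-0.31). In adult small intestine 1 of 4 platelet genes passed as lower and 1 of 11 small intestine region genes as higher. The part of cell composition in the members' ratios was not tested.

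In wild type tissue, Rap1gap had a higher signal in every adult colon pool than in every adult small intestine pool, and the fetal groups as labelled overlapped. The wild type log2 signal of the bright probe was 13.46, 13.03 and 13.13 in the adult colon pools and 10.75 and 10.95 in the adult small intestine pools. The fetal pools labelled small intestine read 10.35, 10.51 and 12.66, and those labelled colon 10.11 and 12.85. The 2 fetal pools with high Hoxb13 signals were thus the 2 with high Rap1gap. From highest to lowest the group means were adult colon at 13.21 ± 0.23 (SD, n = 3), fetal small intestine at 11.55 ± 1.57 (n = 2), fetal colon at 11.48 ± 1.93 (n = 2) and adult small intestine at 10.85 ± 0.14 (n = 2). The fetal groups do not differ from each other or from adult small intestine beyond their spread.

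Adult colon exceeded adult small intestine by 2.36 ± 0.86 (log2, limma standard error), with an adjusted p of 0.203 over all genes when all pools shared 1 estimate of the spread. Without the slide that went against its labels, the same means differed by 2.36 ± 0.21 (adjusted p = 0.00212), a 5.12-fold difference. The fetal colon minus fetal small intestine difference was -0.07 ± 0.94 (adjusted p = 1.00) with all pools and 2.41 ± 0.32 (adjusted p = 0.0225) without the slide. That last fit has 1 sample in each fetal group, which were assumed to vary like the adult groups, and 3 residual degrees of freedom. Adult minus fetal differences of Rap1gap were -0.69 ± 0.94 in small intestine (adjusted p = 0.682) and 1.73 ± 0.86 in colon (adjusted p = 0.246). Without the slide they were 0.42 ± 0.28 (adjusted p = 0.455) and 0.36 ± 0.26 (adjusted p = 0.450).

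Of the 5 members tested, 0 passed between adult colon and adult small intestine with limma and 1 had an unadjusted p under 0.05 (Rap1gap). Of all genes 3.16% passed (1.68% higher and 1.48% lower in colon) and 18.3% had an unadjusted p under 0.05. Without the slide 1 of 5 passed, against 9.03% of all genes. Between fetal colon and fetal small intestine 0 of 5 passed, 0 had an unadjusted p under 0.05, against 0.00586% and 0.568% of all genes. Without the slide 1 of 5 passed, against 3.01% of all genes.

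Sipa1 was lower in the adult than in the fetal pools, and no tissue difference passed. Its wild type log2 signal was 8.48 and 8.44 in adult small intestine and 8.51, 8.40 and 8.64 in adult colon. In fetal pools it was 9.45, 9.46 and 9.27 under the small intestine label and 9.38 and 9.59 under the colon label. Every adult pool lay below every fetal pool, on the slide in question too. Adult and fetal small intestine pools were on different slides, so age and slide cannot be told apart in that contrast. In colon, only adult pool 3 and fetal pool 2 shared a slide. The adult minus fetal difference was -0.90 ± 0.18 in small intestine (adjusted p = 0.0260), a 1.87-fold lower signal in the adult, and -0.97 ± 0.16 in colon (adjusted p = 0.0148), 1.96-fold lower. Without the slide it was -1.0 ± 0.23 (adjusted p = 0.0640) and -1.07 ± 0.21 (adjusted p = 0.0358), so the call in small intestine was lost. The small intestine call was also lost with median centring (adjusted p = 0.0565), without adult colon pool 3 (0.0564), and without any 1 of the 4 samples it compares (0.100 to 0.186). The colon call was lost without fetal colon pool 1 (0.0509) or 2 (0.0759). Both were lost with only the compared groups fitted (0.0519 and 0.0875) and with the replicate number as a block (0.167 and 0.0788). Without the dimmest array the adjusted p was 0.00636 and 0.00325. The sign was the same under all of these settings. The other Sipa1 probe differed by -0.85 and -0.96. Sipa1 was the 1 of 5 members that passed in each of these contrasts, in which 8.85% (5.05% higher and 3.8% lower in the adult) and 9.14% (6.05% and 3.09%) of all genes passed. Without the slide 6.45% and 10.1% of all genes passed.

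Rapgef3 had wild type log2 signals of 11.48 and 11.28 in adult small intestine and 10.39, 12.54 and 12.42 in adult colon. In the fetal pools it read 10.97, 10.82 and 12.08 under the small intestine label and 10.65 and 12.19 under the colon label. The fetal pools with high Hoxb13 signals again had the higher Rapgef3. The low adult colon pool is pair 1, whose value averages the dimmest array with its dye swap. The adult colon minus small intestine difference was 0.40 ± 0.75 (adjusted p = 0.806), and 1.16 (adjusted p = 0.212) without that array. With the slide left out, fetal colon minus fetal small intestine was 1.29 ± 1.03 (adjusted p = 0.657). Adult minus fetal Rapgef3 was -0.11 in small intestine and 0.36 in colon with all pools. Without the slide these differences turned to 0.48 and -0.41, with 1 sample in each fetal group. No tissue or age difference of Rapgef3 passed.

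No tissue or age difference of Rap1a or Rap1b passed with all arrays. The wild type Rap1a signal ran from 12.70 to 13.69, with adult colon minus small intestine at 0.22 ± 0.26 (adjusted p = 0.693). The wild type Rap1b signal was 11.02 and 10.91 in adult small intestine, 9.57, 11.07 and 10.92 in adult colon, and from 11.31 to 11.56 in the fetal pools. Pool 1 of adult colon was low, with 7.99 on the dimmest array and 11.16 on its dye swap. Adult minus fetal Rap1b was -0.57 ± 0.46 in small intestine (adjusted p = 0.473), and -0.57 with an adjusted p of 0.0277 when that array was left out. The other 2 Rap1b probes differed by 0.21 and 0.05 in that contrast, so the probes disagreed in direction.

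The wider Rap1 pathway was described with a list of 74 gene names, of which 72 genes were tested. Rasal1 did not pass the filter and Mllt4 is an older symbol of Afdn. In KO over wild type, 0 of 72 passed in adult small intestine with limma, where 0.398% of all genes passed, and 7 (9.72%) had an unadjusted p under 0.05, against 12.1% of all genes. In adult colon 5 of 72 passed (6.94%), below the 9.59% of all genes. In fetal small intestine 0 passed, with 0.439% of all genes passing, and 2 (2.78%) had an unadjusted p under 0.05, against 7.54% of all genes. In fetal colon 0 passed, with 0.287% of all genes passing, and 4 (5.56%) had an unadjusted p under 0.05, against 6.50%. The median log2 ratios of the list were -0.01, 0.00, 0.02 and -0.0008 in the 4 groups, against -0.01, -0.003, 0.003 and -0.0006 over all genes.

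The gene that rose in adult colon was Tln2, encoding talin 2, which links integrins to actin, at 0.38, 0.61 and 0.39 in the 3 pairs (mean 0.46 ± 0.06 limma standard error, adjusted p = 0.00558). Prkar2b, a regulatory subunit of the cAMP-dependent kinase, fell, with ratios of -0.42, -0.57 and -0.18 (-0.39 ± 0.10, adjusted p = 0.0422). Adcy6, an adenylyl cyclase that makes cAMP, fell, with -0.27, -0.43 and -0.37 (-0.36 ± 0.06, adjusted p = 0.0135). Rapgef5, another exchange factor for Rap, fell by 0.24 ± 0.04 on the log2 scale (adjusted p = 0.0137). Sipa1l2, a relative of Sipa1, fell by 0.15 ± 0.04 (adjusted p = 0.0367). All 5 changes were smaller than those of Rap1gap and of Rapgef3 in the same pools. Nothing is read from that, since the members were chosen with these ratios in view. Without the slide that went against its labels 3 of 72 passed in adult colon. Without adult colon pair 1, 2 or 3 the count was 1, 2 and 4, and without fetal colon pair 1 or 2 it was 3. With medians centred in place of loess it was 0. The number of all genes called in adult colon moved as well, from 57 to 2337 over the alternative settings.

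**Figure D4:**
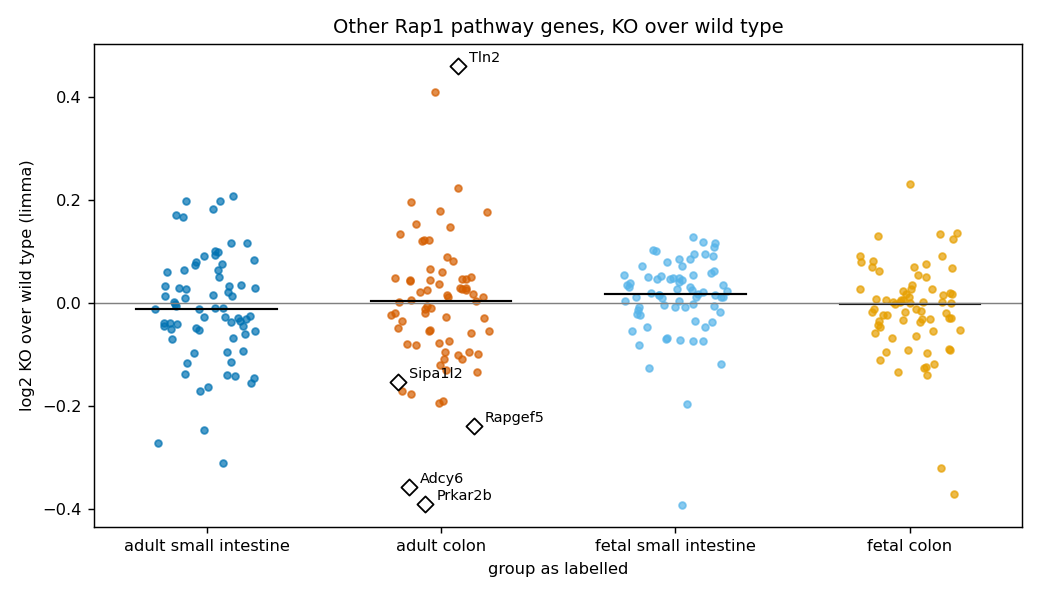
Log2 KO over wild type of the 72 other Rap1 pathway genes in the 4 groups as labelled, 1 point per gene, with a bar at the median of each group. Open diamonds with names mark the 5 genes of adult colon that passed at an adjusted p under 0.05.

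Among exchange factors and their activators 1 of 15 passed in adult colon, among GTPase activating proteins 1 of 8, among Rap2 genes 0 of 3, among effectors 1 of 25 and among cAMP genes 2 of 21. Over all genes 9.59% passed there, and lists this small say little beside that share. Of the members' close relatives, Rapgef5 and Sipa1l2 fell in adult colon, as given above, and others did not pass. Rap1gap2, a paralogue of Rap1gap, had -0.03 ± 0.07 (adjusted p = 0.834), Sipa1l1 had -0.11 ± 0.06 (adjusted p = 0.249) and Rapgef2 had 0.02 ± 0.05 (adjusted p = 0.862).

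In wild type tissue, 3 of the 72 pathway genes passed between adult colon and adult small intestine, where 3.16% of all genes passed. Rap1gap2 was higher in adult colon, at 10.56, 9.81 and 10.45 against 8.90 and 8.43, by 1.61 ± 0.27 (adjusted p = 0.0239). Rap2a, a GTPase related to Rap1, was higher at 11.29, 10.92 and 11.16 against 9.64 and 9.61, by 1.5 ± 0.23 (adjusted p = 0.0175). Adcy8, an adenylyl cyclase, was well above background on 4 of 4 arrays of adult small intestine and 0 of 6 of adult colon, so that its signal was at least 2.42-fold higher in small intestine (adjusted p = 0.00747). The bound sets the mean of small intestine against the lowest signal well above background on each colon array. These 3 differences also passed without the slide (adjusted p = 0.0270, 0.00721 and 0.00885). Between fetal colon and fetal small intestine 0 of 72 passed with limma and 0 had an unadjusted p under 0.05, and 0 of 72 passed without the slide.

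Between adult and fetal small intestine 6 of 72 passed, in a contrast where 8.85% of all genes passed. Cdh1, the epithelial cadherin, was higher in the adult by 1.51 ± 0.35 (adjusted p = 0.0411), Adcy8 by 1.14 ± 0.17 (adjusted p = 0.0101) and Adcy9 by 1.13 ± 0.23 (adjusted p = 0.0287). Lower in the adult were Rasgrp2, an exchange factor for Rap known from platelets, by -1.70 ± 0.42 (adjusted p = 0.0491), Prkar2b by -1.26 ± 0.28 (adjusted p = 0.0353) and Adcy2 by -0.82 ± 0.19 (adjusted p = 0.0434). Adcy2 was above background on 1 of 4 adult arrays and Adcy8 on 2 of 6 fetal arrays. Age and slide cannot be told apart in this contrast, as for Sipa1. Of these 6, Adcy8 alone passed without the slide (adjusted p = 0.0349).

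Between adult and fetal colon 9 of 72 passed, where 9.14% of all genes passed. The ninth, beyond those described here, was Adcy9, higher in the adult. The 4 largest differences upward in the adult were Afdn, the junction protein afadin, at 1.78 ± 0.29 (adjusted p = 0.0135), Cdh1 at 1.71 ± 0.32 (adjusted p = 0.0205), Rap1gap2 at 1.52 ± 0.27 (adjusted p = 0.0178) and Rapgef6, an exchange factor, at 0.91 ± 0.22 (adjusted p = 0.0452). The 4 downward were Rasgrp2 at -1.60 ± 0.38 (adjusted p = 0.0441), Prkar2b at -1.32 ± 0.25 (adjusted p = 0.0219), Arap3 at -1.31 ± 0.22 (adjusted p = 0.0147) and Rasip1 at -1.19 ± 0.26 (adjusted p = 0.0340). Arap3 and Rasip1 encode Rap1 effectors that are known from vessels. Marker sums differed with age as well. Over the wild type pools, the summed linear signal of 11 epithelial genes, Cdh1 among them, was 715244 to 781480 in adult and 359426 to 436146 in fetal small intestine, and 740333 to 879033 in adult and 374987 to 387741 in fetal colon. That of 12 endothelial genes was 9518 to 10422 in adult and 16062 to 19031 in fetal small intestine, and 6833 to 10281 in adult and 18965 to 20840 in fetal colon. Their part in the age differences of the pathway genes and of Sipa1 was not tested. Most adult and fetal colon pools were also on different slides, and the part of slide was not tested. Of these 8 pathway genes, Afdn, Rasgrp2, Prkar2b and Arap3 also passed without the slide (adjusted p = 0.0201, 0.0482, 0.0415 and 0.0441).

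The genes most like Rap1gap in their level, by Pearson's r over the 20 wild type and KO pools, were Nupr1 (0.96), Agr2 (0.95), Ramp1 (0.95), Ffar2 (0.93) and Cacna1h (0.93). The pools fall into colon and small intestine and share tissue, stage and arrays in pairs, so r is a measure of likeness only and carries no p. It uses no tissue label. Nupr1 had KO over wild type log2 ratios of -1.25, -2.21, -1.11 and -1.01 (adult small intestine, adult colon, then the fetal groups in the same tissue order), and Agr2, a disulfide isomerase of goblet cells, had -0.62, -0.56, -1.15 and -1.13. The genes most like Rap1gap in the KO over wild type ratio over the 10 pairs were Slc6a4 (0.97), Tpd52l1 (0.96), Nupr1 (0.95), Golm2 (0.95) and Abcb9 (0.94). Tpd52l1 had ratios of -0.36, -1.48, -0.21 and -0.17 and Golm2 had -0.28, -1.14, -0.08 and -0.21. Slc6a4 had -0.01, -0.41, 0.07 and 0.22, so a high r did not mean a loss of like size. These genes were picked by r with the Rap1gap ratio, so a shared low in adult colon follows from that choice. Over the 10 wild type pools, the Rap1gap level had r = 0.99 with Spdef, 0.98 with Agr2, 0.96 with Galnt12, 0.86 with Muc2 and 0.54 with Rapgef3. Over the 10 pairs the ratio of Rap1gap had r = 0.90 with that of Spdef and 0.81 with that of Rapgef3. With the ratios of goblet cell genes it had r = -0.32 (Muc2), -0.59 (Agr2), -0.29 (Galnt12) and -0.90 (Tff3). No r is given for the other goblet genes, so these values do not describe the goblet list. Among the others, Creb3l4 had its lowest ratio in adult colon, as Rap1gap did (-2.71, against -2.26, -2.10 and -1.82 elsewhere).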

How the data were processed

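Signals came from 20 two-colour Agilent arrays. Per the submitters' processing notes, spots were read with Agilent Feature Extraction 9.5.3. Per the file headers, the mean, background and processed signals are intensity values on a linear scale, the LogRatio column is the log10 of red over green, and probe positions are mm8. The deposited series table of the authors holds log2 ratios, with 49.0% to 72.7% of an array's values at exactly 0 and column medians of 0; set against the scanner ratios, their direction was KO over wild type on 20 of 20 arrays.

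limma 3.58.1 (R 4.3.3) corrected mean signals with normexp (offset 50) and loess, with control spots at weight 0 and control and outlier spots then left out. Arrays and their dye swaps were averaged. A probe stayed in when some group and genotype had it well above background on each of its arrays, and a gene took the values of its brightest such probe. Names came from RefSeq accessions (23395 probes), symbols (6719) and synonyms (2915) of GRCm38.p6, or from the file (8145). A single linear model in limma, with 4 group means for 9 replicates (5 residual degrees of freedom), gave two-sided tests, Benjamini-Hochberg adjusted over all genes at 0.05. Wild type levels were scaled between arrays with Aquantile and fitted alike. Values after ± are limma standard errors unless marked SD. The number of arrays limits the precision, and since nothing says that the pools of a group came from separate litters, p-values measure the spread between these pools.

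The members and gene lists were chosen with earlier results of these data known. Named genes were every member probe; in each contrast up to 4 list genes each way with the largest change among those that passed; and the 5 genes with the highest r to Rap1gap on each measure, without clone, RIKEN, LOC and Gm names. A few genes were named outside this rule, after their values were seen: the markers, and the paralogues in adult colon. A probe named 6330581N18Rik in the files, whose accession is of Rapgef4, was not counted as a member probe. Replicate numbers did not pair pools: deviations of same-numbered pools correlated across genes at -0.07 to 0.16 for ratios and -0.26 to 0.92 for wild type levels. Fits were tested on simulated data.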

Additional observations from a re-analysis of the deposited data

Results flagged for a closer look

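In 4 of 40 comparisons of Rap1b, Rap1a, Sipa1, Rapgef3 and Rap1gap probes between groups, all pairs of pools of one group lay on one side of 0 and all of the other on the opposite side. All 4 were at Rap1b probes, and these differences were not tested. The share of all probes on the array that split in this way was not counted. With 2 or 3 samples in a group, values that scatter around 0 can split so by chance, and nothing is read from the count. At chr10:117218064-117218123 the mean log2 KO over wild type of Rap1b was -0.06 in adult small intestine and 0.10 in adult colon, a difference of 0.153. At chr10:117216955-117217014 it was -0.02 in adult small intestine and 0.05 in adult colon, a difference of 0.0749, and -0.06 in fetal colon, which differs from adult colon by -0.106. At chr10:117224596-117225809 it was -0.13 in adult small intestine and 0.11 in fetal small intestine, a difference of 0.248. The 3 probes did not share 1 pattern over the 4 groups.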

How the results depend on the processing

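Rap1gap and Rapgef3 stayed lower in KO in each group under all 25 settings run, alternatives and omitted replicates included. Several settings, such as another prior or leaving out replicates of other groups, cannot change the mean ratio of a group. The members were also chosen by these ratios, so nothing is read from the count. For Rap1gap the log2 ratio moved by more than the spread with the mean of both probes (adult small intestine -0.55 and colon -1.04, fetal small intestine -0.58 and colon -0.43) and with medians centred in place of loess (-0.93 in fetal colon). With the replicate number as a block it was -1.42 in adult colon. The block also took the pathway genes called in adult colon from 5 to 0. The members called between adult and fetal tissue went to 0 in small intestine and 0 in colon. The labels do not say that the numbers pair the pools. Leaving out single replicates gave Rap1gap ratios of -1.21 to -0.82, -1.63 to -1.56, -1.08 to -0.80 and -0.87 to -0.63 in those groups. Over all genes, the number called in adult colon moved as well, from 57 to 2337 over the alternative settings. The pathway counts below are therefore not a result about the pathway alone. The pathway genes called in adult colon numbered 0 with median centring, 0 with each group fitted alone, 3 with a trended and robust prior, 3 without the slide that went against its labels, 8 with fetal small intestine pairs 1 and 2 separate, and 1 to 4 with 1 replicate left out. In fetal small intestine they numbered 1 without background subtraction, 1 with those pairs separate and 0 to 1 with 1 replicate left out. Of wild type contrasts, the members called between adult and fetal small intestine (1) fell to 0 with median centring, with the compared groups alone and without the slide, and rose to 2 without the dimmest array, an alternative chosen after seeing the data; leaving out 1 replicate gave 0 to 2. Between adult and fetal colon the 1 call became 0 with the compared groups alone, and 0 to 1 with 1 replicate left out. Between adult colon and small intestine there was 1 call with the compared groups alone and 1 without the slide, and between the fetal tissues 1 without the slide, where the Rap1gap difference turned from -0.07 to 2.41 (adjusted p = 0.0225). Median centring turned 2 ratios near 0: Rap1b in adult colon to -0.0202 and Sipa1 in fetal colon to -0.11. The cause of these shifts was not tested. Dim signal limits Rapgef4, the dim Rap1gap probe and 1 Rap1a probe.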
